A study of Mus musculus with 12 samples.

Results

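Within the 6 aortocaval arteriovenous fistulas (AVF) of this mouse study, 2 libraries were set apart as outliers (OUT), and the other 4 were called normal AVF (nAVF). The OUT libraries came from mouse 5, a male, and mouse 9, a female. The nAVF libraries came from the male mice 4 and 6 and the female mice 7 and 11. The OUT libraries were chosen by the study on the clustering of the measured expression of these same libraries, so the genes that separate the groups are described here, with no p value taken as evidence, and no test can be independent of the grouping.

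The mice were wild-type C57BL/6, 10 weeks old, and the fistula was made by puncturing the infrarenal aorta into the inferior vena cava (IVC) with a needle. All 12 mice of the series, 6 with an AVF and 6 sham-operated, were anesthetised and had both vessels exposed and clamped, and the shams lacked the puncture alone. The IVC was taken on postoperative day 7 after flushing with saline, and each mouse gave 1 library of poly(A) RNA, so the replicate is the mouse: n = 2 for OUT, n = 4 for nAVF and n = 6 for sham. Each sex supplied 1 OUT, 2 nAVF and 3 sham libraries. Total expected counts were 15177881 to 22717423 per library. Ribosomal RNA took 46.0% of the counts of nAVF mouse 7 and 2.39% to 12.6% of those of the other 11 libraries. Pecam1 and Cdh5, both endothelial junction genes, were named after their values were seen. They were at 663 and 299 normalized counts per 1000000 (CPM, after TMM normalization, the scale of every level below) in mouse 5. In mouse 9 they were at 700.4 and 301, against 577 to 685 and 261 to 326 in nAVF. These 2 genes show endothelial RNA in the OUT libraries and cannot by themselves show which tissue was taken.

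The hepatocyte is the main cell of the liver. It secretes most plasma proteins, among them albumin, the clotting factors and the apolipoproteins, and it carries out the urea cycle, bile acid synthesis and the oxidation and conjugation of drugs and steroids. Much of this program depends on liver transcription factors such as HNF4alpha, and in mice part of it differs between males and females. Some of these genes are also expressed outside the liver, the vein included, and others are largely limited to hepatocytes. Of the raised genes described below, 2 P450 genes of opposite rank in the OUT fistulas had a letter string of HNF4alpha before their start, and the 250 bases before the transcription start are printed for them, from the RefSeq promoter table (build GRCm38.p6), each matched without a difference to GRCm39. Letters run 5′ to 3′ on the minus strand, and capitals mark the string CAAAGTCCA. The pair was picked after values were seen.
Cyp3a41a (higher in mouse 9), chr5:145656947-145657196: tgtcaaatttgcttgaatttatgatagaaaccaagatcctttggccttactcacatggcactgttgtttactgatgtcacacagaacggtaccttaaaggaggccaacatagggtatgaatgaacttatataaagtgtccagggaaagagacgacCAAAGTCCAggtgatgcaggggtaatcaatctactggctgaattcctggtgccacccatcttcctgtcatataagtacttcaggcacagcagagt
Cyp2c67 (higher in mouse 5), chr19:39637487-39637736: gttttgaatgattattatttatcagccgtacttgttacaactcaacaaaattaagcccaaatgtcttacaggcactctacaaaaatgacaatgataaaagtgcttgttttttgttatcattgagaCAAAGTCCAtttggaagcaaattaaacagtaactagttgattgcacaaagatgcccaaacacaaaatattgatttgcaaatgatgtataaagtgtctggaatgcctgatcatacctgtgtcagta
The string began 95 bases before the RefSeq start in Cyp3a41a and 125 in Cyp2c67.

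All 4 markers were high in both OUT fistulas and near 0 in the other 10 libraries. Their summed level was 2208 CPM in mouse 5 and 6796 in mouse 9, against 0.580 to 2.94 in nAVF and 0.253 to 2.43 in sham. Albumin was at 1833 CPM in mouse 5 and 5642 in mouse 9. In nAVF mice 4, 6, 7 and 11 it was at 0.58, 2.67, 2.05 and 0.755 CPM, and in sham at 0.126, 0.919 and 1.96 (lowest, median and highest). The ratio of the OUT mean to the nAVF mean was 2469.6 for Alb. Fga was at 173 and 904 CPM in OUT and at 0, 0.0452, 0.615 and 0 in nAVF, a ratio of 3264. For both genes the groups lay far apart, and the OUT female stood above the OUT male. Mug1 was at 122 and 166 CPM in OUT, and its only counts in nAVF were in mouse 6, at 0.136 CPM. Fabp1 was at 80.5 and 84.6 CPM in OUT and at 0, 0.0905, 0.102 and 0 in nAVF. With so few nAVF counts, the ratios of summed counts were 3332 for Mug1 (95% exact binomial interval 1139.7 to 16164) and 1931 for Fabp1 (660.1 to 9368), intervals that cover counting error only. The plot of the markers by library shows this gap and the low background in sham.

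**Figure D1:**
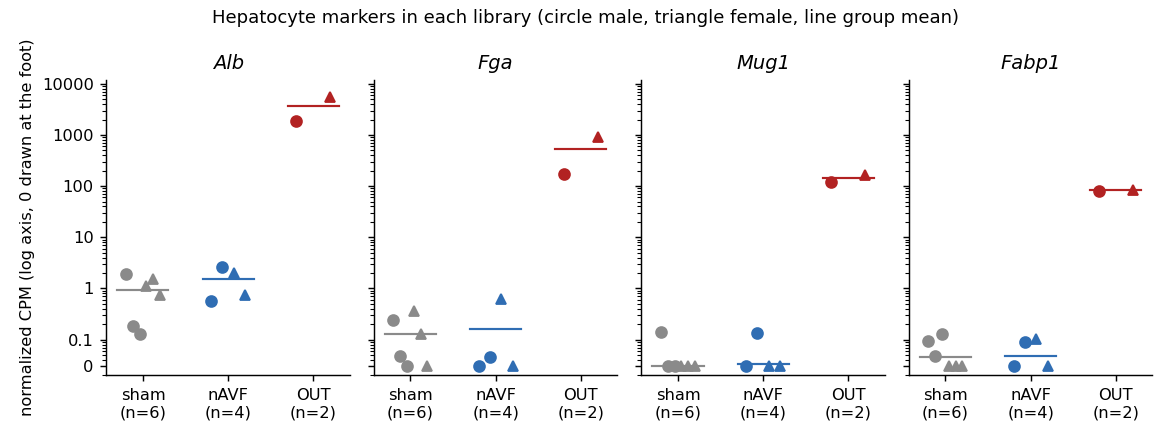
Level of Alb, Fga, Mug1 and Fabp1 in each library, in normalized CPM on a log axis with 0 drawn at the foot, by group (sham n = 6, nAVF n = 4, OUT n = 2); circles are males, triangles females and lines group means. Both OUT points lie above every other point, with Alb at 1833 and 5642 CPM against at most 2.67 in nAVF.

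Over the whole transcriptome the separation ran almost wholly upward. Of 22123 genes with a total over 12 counts and a count in the AVF libraries, 351 were raised in OUT and 1 was lowered by edgeR's quasi-likelihood test (Benjamini-Hochberg adjusted p under 0.05 and at least a 2-fold change, the cutoffs of the study but not its test). These were 1.59% and 0.00452% of the genes. Since the groups were named from these data, nothing is read from those shares. Without adjustment, 1144 genes had a p under 0.05, of which 284 were lower in OUT. Of the 351 raised genes, 350 had both OUT libraries above all 4 nAVF libraries (the exception, Cyp3a41a, was high in mouse 9 alone), and 340 had both above all other 10 libraries. Without mouse 9, 212 genes were raised, and without mouse 5, 392. A fit of all 12 libraries with the replicate number as a block raised 96, of which 89 were among the 351. Counted by value alone, with a mean of at least 1 CPM, no overlap between the groups and at least a 2-fold difference of the means, 442 of 14825 genes were higher in OUT (2.98%) and 52 were lower (0.351%). Without mouse 5 these were 687 and 318.

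The raised genes were mostly liver genes. Lists of hepatocyte genes by role held 441 genes, of which 413 could be tested. Of these 413, 261 (63.2%) were raised, against 90 of the 21710 other genes (0.415%). The lists were written from general knowledge with earlier results of these data known, so the contrast of these shares is a description only. By edgeR no gene on a liver list was lowered, also at an unadjusted p under 0.05 or by DESeq2, while 362 of the 413 were higher at that p. The median fitted log2 fold change was 7.01 over the liver lists and -0.02 over all genes. Of the liver list genes, 159 had over 3 counts in both OUT libraries and at most 3 in each nAVF library, and 125 of them also had at most 3 in each sham library. At the edge of the rule, the urinary protein gene Mup10 (7.03 and 18.7 CPM in OUT, 0.136 to 2.25 in nAVF) and Perp (11.0 and 20.8 against 3.98 to 6.46) were just inside it. Inhbc, an inhibin subunit of liver, at 0.819 and 2.10 CPM with 0 in nAVF, and the nucleotide receptor P2ry4, at 0.482 and 1.71 with at most 0.058, were just outside it. In tissue RNA of this kind, more cells of a type and more RNA per cell cannot be told apart.

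**Figure D2:**
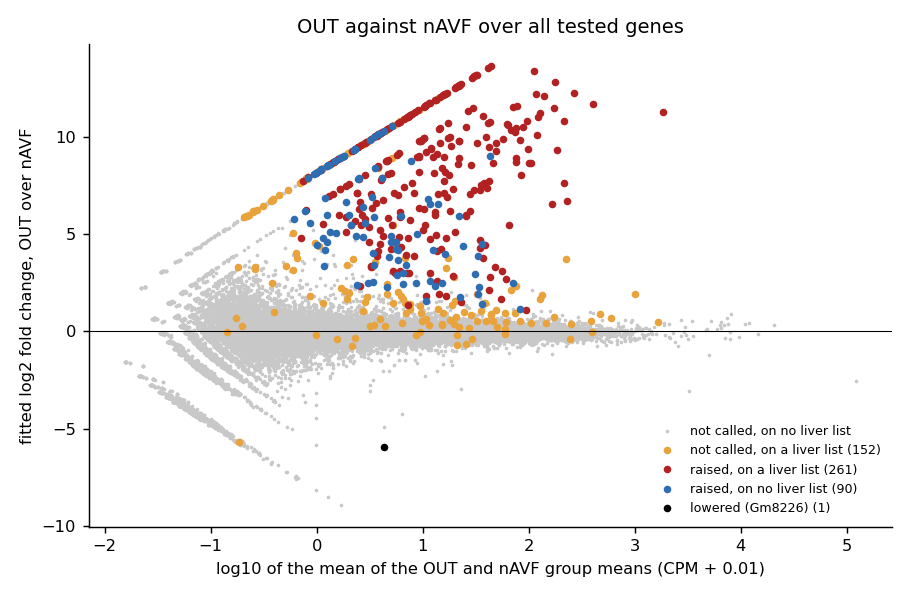
Fitted log2 fold change of OUT over nAVF (vertical) against the log10 of the mean of the OUT and nAVF group means in CPM with 0.01 added (horizontal), 1 point per tested gene. The 261 raised liver list genes (red) and the 90 other raised genes (blue) stand above the cloud of genes not called (grey, or orange for the liver lists), and 1 gene, Gm8226 (black), is called below it; the diagonal stripes are genes with few or no counts in 1 group.

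Among secreted proteins, 34 of 46 tested plasma carriers were raised (median log2 fold change 7.08). Ahsg, the carrier fetuin A, was at 201 and 655 CPM in OUT and at 1.28, 1.95, 1.33 and 3.82 in nAVF. Gc, the vitamin D binding protein, was at 181 and 563 against 0.232 to 0.896. Neither overlapped between the groups. Of 17 protease inhibitors of the serpin family, 13 were raised (median 8.03). Serpina1c, a mouse alpha-1-antitrypsin, was at 133 and 334 CPM in OUT, and its only nAVF counts were in mouse 6, at 0.136 CPM. Serpina3k stood at 302 and 612 CPM, with 14.8 in nAVF mouse 4 and 0.307 to 1.23 in the other nAVF. Serpina1, Serpina3, Mug, Mup, Cyp2c and Cyp3a genes have close copies, between which expected counts divide the reads, so the share of each single gene is uncertain while the family total is less so.

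Clotting factors formed the list with the highest share of raised genes, 20 of 21 (median 9.68). Beside Fga, its partner chains Fgb and Fgg were at 149 and 122 CPM in mouse 5 and at 715 and 591 in mouse 9. In nAVF the highest library was at 0.82 CPM for Fgb and 0.102 for Fgg, both in mouse 7. The ratio of mouse 9 to mouse 5 was thus alike for the 3 chains of fibrinogen, at 5.22, 4.78 and 4.85. Of 19 complement components and regulators 13 were raised (median 7.06), among them Hc, the complement component C5, at 37.6 and 102 CPM against 0.058 to 0.769 in nAVF, and the protease Cfi, at 21.4 and 79.9 against 0.29 to 1.40. C8b, a chain of the membrane attack complex, was named after its values were seen: it was at 15.5 and 21.0 CPM, with a single count in nAVF.

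Of 10 acute-phase proteins 5 were raised (median 6.36), and over these 5 the median ratio of mouse 9 to mouse 5 was the highest of the 14 role lists, at 7.54. By summed level the list was at 441 and 1456 CPM in OUT and at 182 to 933 in nAVF, so that nAVF mice 4 (933) and 6 (479) were above mouse 5. Saa1 and Saa2, the serum amyloid A genes induced in liver by inflammation, were at 5.97 and 2.84 CPM in mouse 5 and at 115 and 83.0 in mouse 9, with at most 0.615 and 0.41 in nAVF. The mouse 9 to mouse 5 ratio was 19.2 for Saa1 and 29.2 for Saa2, while its median over the raised liver genes was 2.80. Saa4, a constitutive serum amyloid A, was at 17.8 and 96.1 CPM. The haptoglobin gene Hp, which the nAVF libraries also held, was not raised: it was at 247 and 528 CPM in OUT and between 134 and 749 in nAVF, so that the groups overlapped. Of 14 apolipoproteins and assembly factors 11 were raised (median 9.10). Apob, the structural protein of very-low-density lipoprotein, was at 385 and 1223 CPM in OUT and at 0.058, 0.724, 0 and 0 in nAVF. Apoa1, of high-density lipoprotein, was at 155 and 266 against 0.141 to 0.811, and Apoa2 at 60.6 and 189 against 0 to 0.136.

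Enzymes and transporters of the hepatocyte were raised as well. For bile acid synthesis and hepatic transport 31 of 40 genes were raised (median 7.05). The sinusoidal anion transporter Slco1b2 was at 67.5 and 204 CPM, and its nAVF counts were all in mouse 6 (0.317). Cyp7a1, the rate-limiting enzyme of bile acid synthesis, named after its values were seen, was at 12.8 and 24.8 CPM with a single nAVF count. Genes that the nAVF libraries also held gave smaller ratios: the amino acid transporter Slc38a4 was at 66.8 and 136 CPM against 8.91 to 15.4 in nAVF, a ratio of 8.56. The fatty acid transporter Slc27a2, at 36.2 and 101 in OUT and 0.707 to 9.68 in nAVF, reached 53.8 in sham, above mouse 5.

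Amino acid, urea and purine metabolism had 41 of 58 genes raised (median 5.84). Cps1, the entry enzyme of the urea cycle, was at 138 and 373 CPM in OUT and at most 0.189 in nAVF. Mat1a, which makes S-adenosylmethionine in liver, was at 86.1 and 402, and Bhmt, which remethylates homocysteine, at 45.4 and 509. Bhmt was 11.2 times as high in mouse 9 as in mouse 5. Glucose and fructose metabolism had the lowest median of the lists (1.77), with 6 of 14 genes raised. Its raised members included the gluconeogenic Fbp1, at 16.7 and 46.0 CPM, and G6pc1, the glucose-6-phosphatase, at 13.2 and 28.3, with at most 0.271 and 0.0472 in nAVF. Of 28 genes of fatty acid and ketone metabolism 14 were raised (median 5.02). The elongase Elovl2 was at 29.1 and 70.9 CPM against 0.232 to 1.22 in nAVF.

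Cytochrome P450 genes had the highest median (10.5), with 23 of 41 raised. The summed level of all 41 was 1934 and 4496 CPM in OUT, and nAVF mouse 4, at 2797, was above mouse 5. Cyp3a11, a main drug-oxidizing enzyme of mouse liver, was at 136 and 313 CPM with a single nAVF count. Cyp2c29 was at 82.0 and 170.4, and its nAVF counts were all in mouse 7 (0.512). For conjugation and ester metabolism 34 of 71 genes were raised (median 5.90). Ugt2b34, a glucuronosyltransferase, was at 26.5 and 94.4 CPM and at 0 in all 4 nAVF libraries, thus at least 319-fold higher in OUT against a floor of 3 counts per library. The carboxylesterase Ces1c was at 84.8 and 297 against at most 0.189, while Fmo5, a monooxygenase that the nAVF libraries also held, was at 65.4 and 103 against 16.5 to 32.4. Of 16 hepatocyte transcription factors 6 were raised (median 6.04). Hnf4a was at 27.4 and 102 CPM and had no count in nAVF, at least 340.1-fold higher against the same floor. Onecut2 was at 7.56 and 37.1 against 0.174 to 1.95, and Nr1i3, the drug sensor CAR, at 2.94 and 9.02 against 0.0943 to 0.41.

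The summed CPM of the 261 raised liver genes was 0.979% of the CPM base in mouse 5 and 2.65% in mouse 9. This base is the fixed number that CPM are counted per. The same sum was 0.0250% to 0.0290% of it in nAVF and 0.0301% to 0.0383% in sham. The OUT female thus had the larger summed level. These are levels and not shares of a library's counts, since CPM after TMM normalization need not add up to the base. The CPM of all tested genes summed to 927734 in mouse 5 and 1554940 in nAVF mouse 7. Gene by gene, 248 of the 261 were higher in mouse 9 and 13 in mouse 5, and the ratio of mouse 9 to mouse 5 had a median of 2.80, with 153 genes between 2 and 4. Across these genes the log2 levels of the 2 libraries had a Pearson correlation of 0.785, a description over genes that share 2 libraries and were chosen for being high in both. By role, the median ratio was 2.45 (glucose and fructose metabolism) to 3.90 (cytochrome P450) in 12 of the 14 lists. Above these was the acute-phase list, at 7.54 over 5 raised genes, and below them were the major urinary proteins, at 0.256 over 10 raised genes of 18 tested.

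The 13 raised liver genes that were higher in the male mouse 5 included 7 urinary protein genes. These are pheromone carriers, several of which are made mainly by the male liver. Mup7 was at 196 CPM in mouse 5 and 1.16 in mouse 9, and Mup20 (darcin) at 179 and 15.8. In nAVF neither exceeded 0.232 CPM. Mup3, in contrast, was at 328 and 329 CPM. The other genes of the 13 were Serpina1e, Selenbp2, Slco1a1, Hsd3b2, Hsd3b3 and Cyp2c67, and the remaining urinary proteins were Mup14, Mup15, Mup17, Mup19 and Mup21. At the opposite end, the highest ratio of mouse 9 to mouse 5 was that of Cyp3a41a, a P450 of female liver, at 0.193 and 312 CPM. Next came Hamp2, a hepcidin gene (ratio 54.3), Cyp4a10 (33.7), Saa2, the manganese exporter Slc30a10 (29.0) and Cyp4a14 (25.0).

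Most genes known as sex-typical in mouse liver were higher in the OUT fistula of the matching sex. Lists of genes known to be higher in male or in female mouse liver, some of them also on the role lists, were read in the 2 OUT libraries. This comparison of 1 male with 1 female was not used to name the groups, but it has no replicate. The lists were written from general knowledge with earlier results of these data known, so they are not independent of these values. Of 17 tested male genes 16 were higher in mouse 5, and all 8 of them that had at most 3 counts in each nAVF library were. All 23 tested female genes were higher in mouse 9. So were 248 of the 261 raised liver genes, and for female genes the direction alone says little of sex. Among the 23 were all 17 with at most 3 counts in each nAVF library. The ratio of mouse 9 to mouse 5, or its lower bound, was at least 8.42 for each of these 17, above the 2.80 of the raised liver genes. Counts over the whole lists include genes that the vein expresses for itself, such as Gstp1 (80.0 and 60.4 CPM, 41.0 to 57.6 in nAVF) and Ntrk2 (73.0 and 113, 72.1 to 145 in nAVF). The exception, the elongase Elovl3, which brown fat also expresses, was at 3.71 CPM in mouse 5 and 9.35 in mouse 9, and reached 22.1 in sham.

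Of the male genes, Cyp2d9 was at 20.4 and 0.996 CPM in mice 5 and 9, a ratio of 20.5 (95% exact interval 12.8 to 35.0). Cyp4a12a, an arachidonic acid hydroxylase induced by androgen, was at 4.91 CPM in mouse 5 and 0 in mouse 9, at least 29.6-fold higher against 3 counts. Hsd3b5, a steroid dehydrogenase of male liver, had 4.29 CPM in mouse 5 and a single count in mouse 9. All 3 were at 0 in nAVF and in sham. Of the female genes, Cyp2c69 was at 0.723 and 119 CPM in mice 5 and 9, a mouse 9 to mouse 5 ratio of 165 (99.7 to 295), and Cyp3a41a had a ratio of 1619 (632 to 5943). The sulfotransferase Sult2a2 and the P450 Cyp2b9 had no count in mouse 5 and 17.8 and 20.5 CPM in mouse 9, at least 123-fold and 142-fold higher. A1bg, a plasma glycoprotein, was at 0 and 7.86 CPM, at least 54.4-fold higher. These genes were high in 1 OUT library only, and accordingly 1 of the 23 female and 5 of the 17 male genes were raised in OUT as a group.

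**Figure D3:**
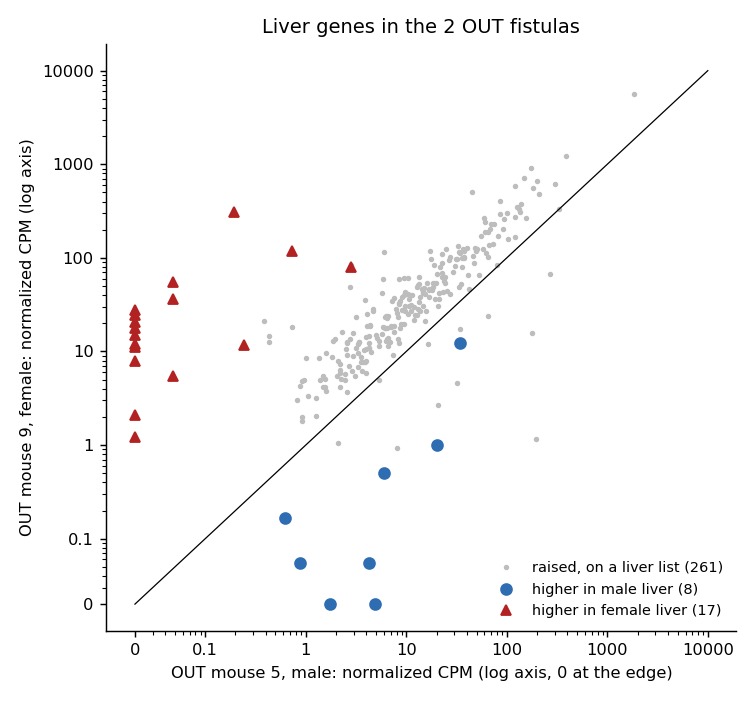
Level in OUT mouse 9, female (vertical), against OUT mouse 5, male (horizontal), in normalized CPM on log axes with 0 at the edge, 1 point per gene; the line marks equal levels. Most of the 261 raised liver genes (grey) lie above the line, while the 8 male genes (blue circles) lie below it and the 17 female genes (red triangles) far above it; both sets had at most 3 counts in each nAVF library.

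The 90 raised genes on no liver list were genes that the hepatocyte lists did not name, and they were far lower in level than the liver genes. All 90 were higher in mouse 9 than in mouse 5, with a median ratio of 2.61 (1.23 to 10.3), against 2.80 over the raised liver genes. Together they had a summed CPM of 0.0786% and 0.204% of the CPM base in the OUT libraries and 0.0176% to 0.0201% in nAVF. Their number moved with the setting: it was 26 without OUT mouse 9, 56 without nAVF mouse 6, 55 without nAVF mouse 11 and 20 with the replicate block, but 141 without a filter and 191 by edgeR's exact test. Of the 90, 41 had at most 3 counts in each nAVF library, 27 of these had at most 3 in each sham library too, and 84 had both OUT libraries above every sham library. The 4 hepatocyte markers were high in the same 2 libraries as these genes, and their part in the result was not tested. By general knowledge, assigned after the values were seen, most of the better known ones are also expressed in liver or in other epithelia, and the lists above did not hold every liver gene.

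Those of low level in nAVF included liver enzymes and transporters. Upp2, a uridine phosphorylase of liver, was at 37.9 and 53.5 CPM in OUT and at 1.85, 2.44, 2.56 and 1.75 in nAVF. Aldh8a1, of retinoid and tryptophan metabolism, was at 7.95 and 23.1 with 1 count in each of nAVF mice 4 and 11, and the sulfate transporter Slc26a1 at 4.24 and 12.2, with 1 count in each of mice 6 and 11. Pigr, the receptor that carries immunoglobulin A across epithelia, was at 25.0 and 146 CPM against 0 to 0.407. Gap junctions and other epithelial contacts were among the 90 as well: Gjb1, the main connexin of hepatocytes, was at 12.7 and 32.0 against 0 to 0.362, and Anks4b, of microvilli, at 2.75 and 7.19 with a single nAVF count. Named after their values were seen, Gjb2 was at 11.9 and 74.0 CPM against 0.283 to 0.869, the desmosomal Dsg2 at 6.31 and 18.1 against 0 to 0.406, the tight junction gene Cldn2 at 3.85 and 8.96 against 0.102 to 0.724 and the simple-epithelium keratin Krt18 at 4.58 and 7.14 against 0.512 to 1.36. The glucagon receptor Gcgr was at 2.46 and 5.81 against at most 0.174, and the thyroid hormone deiodinase Dio1 at 1.88 and 11.2, with its nAVF counts all in mouse 7 (0.307).

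Of the 90 genes, 22 had a nAVF mean of at least 1 CPM and 6 of at least 10 CPM. Among the 22 the ratio of the OUT mean to the nAVF mean was 2.25 to 23.2. The 6 most abundant in nAVF were Sord, Ahcy, Ceacam1, Slc25a15, Rida and Reep6. Sord, a polyol dehydrogenase, was at 97.6 and 134 CPM in OUT, at 51.0, 63.0, 39.3 and 52.6 in nAVF (mean 51.5 ± 9.70 SD, n = 4) and at 65.9, 69.6 and 74.2 in sham. Ahcy, which hydrolyses S-adenosylhomocysteine, was at 62.2 and 181 against 14.8 to 29.3 in nAVF and up to 24.6 in sham. For both, each OUT library was above all 10 others. Ceacam1, an adhesion molecule of epithelium and endothelium, was at 36.7 and 68.4 against 16.8 to 22.2, but its highest sham library, at 39.2 CPM, was above mouse 5. Slc25a15, the mitochondrial ornithine carrier, was at 30.8 and 75.2 against 11.8 to 17.2, Rida, an imine deaminase, at 25.3 and 86.4 against 7.97 to 16.4, and Reep6, of endoplasmic reticulum membranes, at 23.8 and 46.6 against 8.49 to 12.9.

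The next in abundance had lower levels in nAVF. Ttpa, the vitamin E transfer protein of liver, had the largest ratio of the 22, at 26.5 and 112 CPM against 1.99 to 4.95, a ratio of 23.2. H2-Q10, a secreted class I molecule of liver, was at 34.7 and 89.5 against 2.59 to 6.84 in nAVF, with 31.2 in the highest sham library. The steroid dehydrogenase Akr1c14 was at 31.0 and 79.8 against 4.53 to 10.2, with 43.0 in the highest sham library, so that mouse 5 was within the sham range. Stard10, a phospholipid carrier, was at 18.6 and 33.1 against 3.87 to 5.43, and Slc25a13, the aspartate carrier citrin, at 8.38 and 20.9 against 2.31 to 2.97. Perp, a desmosomal gene, was at 11.0 and 20.8 CPM in OUT and at 8.77, 10.8 and 14.6 in sham, so that mouse 5 again lay in the sham range.

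Cells of the liver other than hepatocytes were looked for by their markers. Clec4f, the defining marker of Kupffer cells, the liver's own macrophages, was raised: it was at 0.964 CPM in mouse 5 and 8.13 in mouse 9, with no count in nAVF or sham, and at least 24.0-fold higher against the floor of 3 counts per library. The call of Clec4f was lost with DESeq2 and held in 5 of 16 alternatives. Cd5l, at 2.65 and 15 CPM against 0.615 to 1.56 in nAVF, was called by DESeq2 and not by the quasi-likelihood test. The other 4 Kupffer markers, shared with macrophages of other tissues, overlapped between the groups: Timd4 was at 2.07 and 4.76 against 1.23 to 6.61, and both OUT values of Folr2, 25.6 and 24.8, lay within the nAVF range. The summed level of the 6 Kupffer genes was 33.8 and 63.7 CPM in OUT, 22.6 to 57.5 in nAVF and 19.4 to 37.3 in sham. Of 6 genes of the liver sinusoid endothelium 1 was raised by the quasi-likelihood test, 4 by DESeq2 and 5 by the exact test, and 5 lay apart by value, with a summed level of 46.7 and 82.6 CPM in OUT, 23.9 to 35.1 in nAVF and 21.4 to 53.1 in sham. Stab2, a scavenger receptor, was at 2.17 and 4.37 CPM against 0.232 to 0.922, and Clec4g at 1.49 and 3.93 against 0 to 0.377. Dnase1l3, the raised gene, was at 2.70 and 5.31 against 0.498 to 0.99, and its call held in 9 of 16 alternatives. Bmp2, which the nAVF libraries held too, was at 23.7 and 47.2 against 9.12 to 17.3. None of 6 genes of hepatic stellate cells and none of 6 of bile duct cells was raised by the quasi-likelihood test or DESeq2 or lay apart, with 1 gene of each list higher at an unadjusted p under 0.05. The exact test raised 1 bile duct gene. Krt19, a keratin of bile ducts, was at 4.82 and 2.77 CPM against 1.13 to 6.14.

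Markers of other organs near the IVC did not separate the groups. None of the tested genes of the acinar pancreas (3), kidney tubule (2), adrenal (4), urothelium (2) or mesothelium (6) was called by edgeR or DESeq2, or had an unadjusted p under 0.05. The same held for the tested genes of erythroid cells (7), neutrophils (8), mast cells (6), T cells (8) and platelets (6). Of 5 intestinal genes 1 was raised, the fatty acid binding protein Fabp2, which liver also expresses, at 2.51 and 4.65 CPM with none in the other 10 libraries.  The skeletal muscle list was uneven, with a summed level of 7.42 CPM in mouse 5 and 71.2 in mouse 9 against 8.91 to 39.2 in nAVF, and none of its 6 genes was called.

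**Figure D4:**
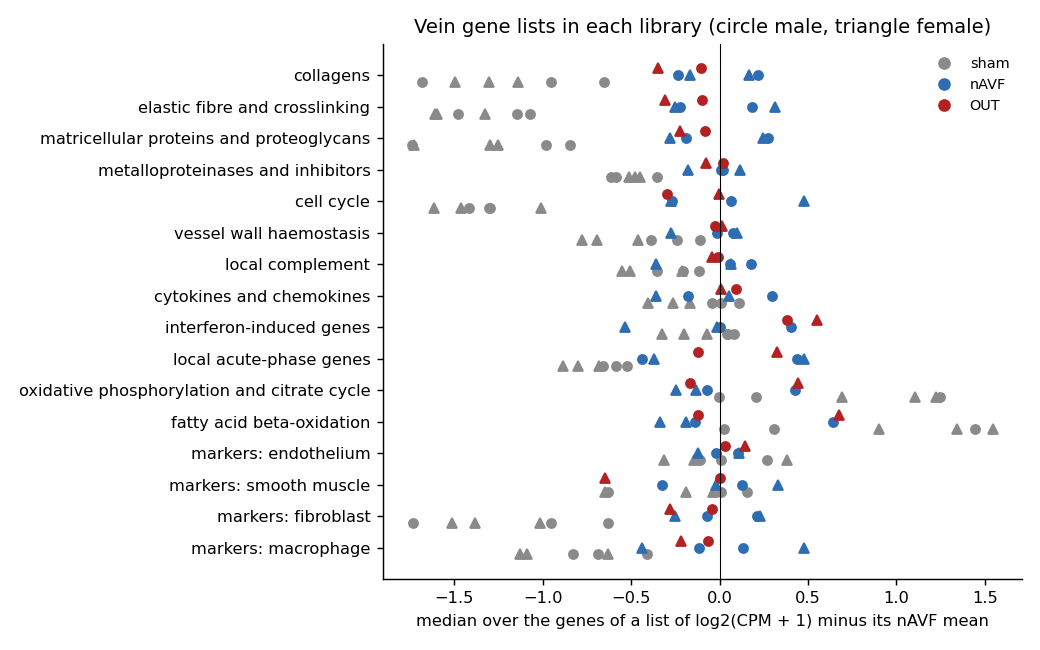
Median over the genes of each list of the log2 of CPM plus 1, minus the nAVF mean of each gene (horizontal), for 12 lists of vein remodeling genes and 4 lists of vessel cell markers (vertical); grey is sham, blue nAVF and red OUT, circles are males and triangles females. For most lists the red points lie among or beside the blue ones, with the sham points of the matrix and cell cycle lists to the left.

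Few remodeling genes of the vein were called between OUT and nAVF by any of the tests. None of 227 tested genes in 12 vein lists passed the rule by the quasi-likelihood test. Of the 217 with at least 1 CPM, 3 lay apart by value. Off the liver lists, 90 of 21710 genes (0.415%) were raised, and 158 of 14470 lay apart higher and 52 lower. With shares so low, the few vein calls say little of these lists. At an unadjusted p under 0.05 there were 9 higher, 7 of them interferon-induced, and 4 lower. Over all 22123 genes 1144 had such a p, of which 284 were lower. DESeq2 called 2, Cxcl1 higher and Mmp12 lower. The exact test called these and Serpinb9b, higher. In 6 of the 12 lists both OUT libraries had a list median within the nAVF range, and in the other 6 one of them lay outside it. Elastin, Eln, was at 3204 and 2335 CPM in OUT, at 2189.5, 4991, 3216 and 4234 in nAVF and at most 377 in sham. Col1a1, of fibrillar collagen, was at 8382 and 5446 against 6879 to 10533 in nAVF, so that mouse 9 stood below all 4, and Col3a1 was at 14767 and 13128 against 12607 to 17894. The median log2 fold change was -0.25 over 19 collagens, -0.26 over 18 elastic fibre and crosslinking genes and -0.22 over 14 matricellular genes, beside -0.02 over all genes. In all 3 lists the list median of each OUT library was above that of every sham library. The metalloproteinase inhibitor Timp1 was at 45.1 CPM in both OUT libraries against 18.8 to 47.8 in nAVF. Of the proliferation genes, Mki67 was at 78.4 and 103 against 90.1 to 175, and Top2a at 52.6 and 70.6 against 58.4 to 85.9, both with mouse 5 below the nAVF range.

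Smooth muscle genes were lower in mouse 9 alone. Myh11, smooth muscle myosin, was at 1137 CPM in mouse 5 and 569.8 in mouse 9 against 995 to 1304 in nAVF, and Acta2, smooth muscle actin, at 1478 and 886 against 1226 to 2079. The fit called neither. Of the 2 vein genes apart in the higher direction, the neutrophil chemokine Cxcl1, which hepatocytes can also make, was at 5.20 and 25.4 CPM against 4.17, 2.53, 0.717 and 0.755 in nAVF, and the interferon-induced Mx2 at 4.14 and 6.14 against 1.23 to 3.59. The median log2 fold change of 22 interferon-induced genes was 0.48, and the list median of mouse 9 was above the highest nAVF library while that of mouse 5 was not. Of these 22 genes 7 were higher at an unadjusted p under 0.05, beside 9 of all 227 vein genes. Over all 22123 tested genes 1144 had such a p, 284 of them lower. None of the 22 was called by edgeR or DESeq2. The serpin Serpinb9b was at 2.94 CPM in mouse 5, within the nAVF range (1.64 to 5.10), and at 37.0 in mouse 9.

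Genes of energy metabolism in the vein did not separate the groups either. Over 25 genes of oxidative phosphorylation and the citrate cycle the median log2 fold change was 0.15, and over 15 genes of mitochondrial beta-oxidation it was 0.23. In both lists the median of mouse 9 was just above that of nAVF mouse 4, and mouse 5 was near the other nAVF. The list median of oxidative phosphorylation was 0.44 in mouse 9 and 0.43 in nAVF mouse 4. The list median of beta-oxidation was 0.67 in mouse 9, 0.64 in nAVF mouse 4 and -0.12 in mouse 5, on the scale of the plot of vein lists. The carnitine carrier Slc25a20 was at 40.2 and 80.4 CPM in OUT and at 57.4, 35.0, 40.1 and 30.8 in nAVF. Summed markers of fat were likewise highest in mouse 9 and nAVF mouse 4 among the AVF libraries. Those of white fat were at 4169 CPM in mouse 5, 7518 in mouse 9, 6358 in nAVF mouse 4 and 3296 to 4044 in the other nAVF. Those of brown fat were at 75.4 CPM in mouse 5, 214 in mouse 9, 208 in nAVF mouse 4 and 18.5 to 134 in the other nAVF, and 1 of the 6, Elovl3, lay apart and was called by the exact test. The part of either fat in the result was not tested.

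A single gene was lowered in OUT by edgeR's quasi-likelihood test, and it is a pseudogene with an exact copy elsewhere. DESeq2 called 11 lowered genes, among them Gm8226, Mmp12 and Pappa2, a protease of growth factor binding proteins, and the exact test of edgeR called 8. Gm8226, a processed pseudogene of the ribosomal protein gene Rpl7a (chr9:84306037-84306834, plus strand), was at 0.0482 and 0.221 CPM in OUT, at 7.48, 7.83, 9.12 and 9.15 in nAVF and at 6.85 to 9.15 over all the other 10 libraries. The pseudogene Rpl7a-ps11 (chrX:165637207-165638007, plus strand), itself among the 90 raised genes, had the reverse pattern, at 6.84 and 8.41 CPM in OUT and 0 in the other 10. The annotated transcripts of the pair were identical over all 798 bases of Gm8226, with 3 more bases at the end of Rpl7a-ps11. Their summed level was 6.85 to 9.15 CPM over all 12 libraries, and so did not separate the groups. Reads of the pair cannot be told apart by sequence, so both calls are uncertain, and how the counting assigned them was not tested. The parent gene Rpl7a was at 296 and 341 CPM in OUT against 251 to 374 in nAVF.

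**Figure D5:**
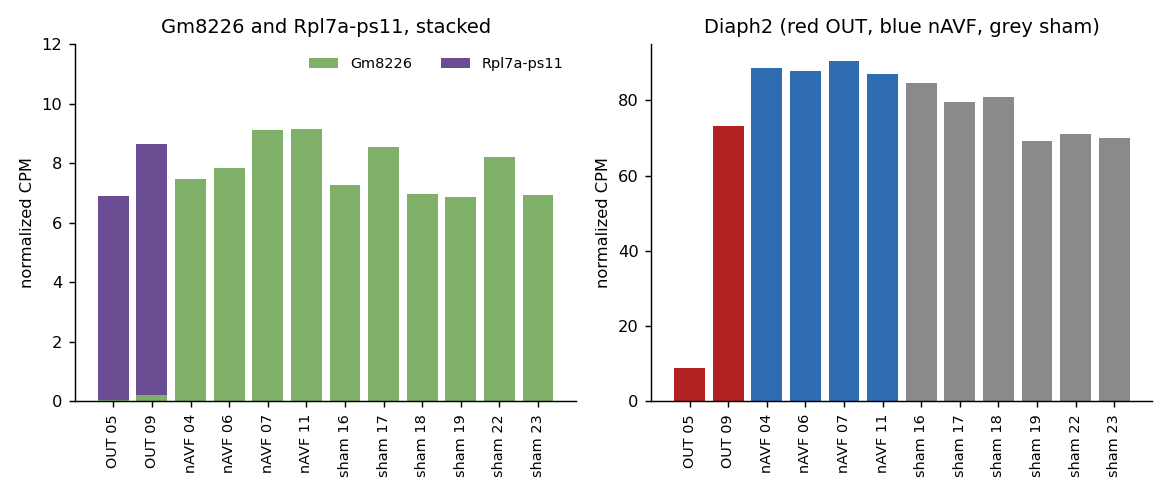
Normalized CPM in each of the 12 libraries for Gm8226 and Rpl7a-ps11 as stacked bars (left) and for Diaph2 (right, red OUT, blue nAVF, grey sham). The 2 pseudogenes exchange places between OUT and the other libraries while their sum stays at 6.85 to 9.15 CPM, and Diaph2 is low, at 8.82 CPM, in OUT mouse 5 alone.

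Another locus set apart 1 OUT library. Diaph2, a formin of the actin cytoskeleton (chrX:128650470-129366583), was at 8.82 CPM in the male mouse 5, and at 73.1 in mouse 9, 87.1 to 90.5 in nAVF and 69.2 to 84.6 in sham. It was found by looking through the values, was not called and was 1 of the 52 genes apart in the lower direction. The genes beside it in the annotation had no such drop, with Pcdh19 at 37.7 CPM in mouse 5 against 34.3 to 55.7 in the 10 libraries outside OUT, Nap1l3 at 8.58 against 4.75 to 14.5, and Cldn34c1 at 6.26 against 6.68 to 13.5.

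The 52 genes apart in the lower direction were mostly of low level, and 7 of them reached a mean of 5 CPM. Their number was 318 without OUT mouse 5, 131 without OUT mouse 9, 146 without nAVF mouse 4 and 81 without nAVF mouse 11. Beside Gm8226, the largest fold changes were those of Eef1ece2, Gm2163, Gm42664, Cdh18, E230020D15Rik, Myo16, Gm37760, Gm37310 and Gm5859, all between 1.32 and 2.24 CPM on average in nAVF. Of vein genes 1 was in this group, Mmp12, the elastase of macrophages, at 9.97 and 7.69 CPM in OUT and at 32.6, 13.5, 40.3 and 29.2 in nAVF, with sham libraries that ran from 0.603 to 46.1. The B cell receptor gene Cd79b was at 1.11 and 0.94 CPM against 1.91 to 4.01. It was 1 of 8 tested genes of B and plasma cells, none of them called, with a median log2 fold change of -1.02. The heavy chain Ighm overlapped, at 81.0 and 76.7 against 53.2 to 286.

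The HNF4alpha string printed above was found in a larger share of promoters of raised genes. Another string that was planned, GTTAAT, a half-site of HNF1, is not reported here, so this string is not the only one considered. CAAAGTCCA on either strand was in 12 of 245 RefSeq promoters of raised liver genes (4.90%, from 210 genes), each 300 bases long and reaching 50 bases past the start. It was in 3 of 76 promoters of raised genes on no liver list (3.95%), in 0.410% of 16829 promoters of tested genes that were not raised and in 0.475% of all 32851 promoters. Promoters of a gene with several starts, and of members of a family, are not independent, and a match describes letters and not binding.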

How the data were processed

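RNA-seq of the IVC of 12 mice was analysed, with OUT taken as mice 5 and 9 and nAVF as mice 4, 6, 7 and 11, as the text of the study names them, and operation and sex from the sample labels. The authors deposited expected counts per gene, made with Trimmomatic 0.39, STAR 2.7.7a and RSEM 1.3.3 (versions from the submitters' processing notes) on GRCm39, with no normalization. Expected counts divide reads between similar genes, and so 5.72% to 7.75% of values per library had a decimal part. The table held 55414 genes, 665 of them without a name in the GENCODE annotation of GRCm39 that gave names and coordinates.

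After rounding to whole numbers, libraries were scaled by TMM factors (edgeR 4.0.16 under R 4.3.3, with limma 3.58.1), and levels are normalized counts per 1000000 (CPM). Genes with over 12 counts in all were kept, the filter of the study, and fitted over the 6 AVF libraries with edgeR's quasi-likelihood test. A gene was raised or lowered with a Benjamini-Hochberg adjusted p under 0.05 and a log2 fold change of at least 1 either way. A floor of 3 counts was worth 0.126 to 0.307 CPM, and intervals are 95% exact binomial intervals of summed counts. The p values rest on the spread between mice within groups that were named from these same data, and none is taken as evidence.

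Members and lists of genes were chosen with earlier results of these data known. Named were the 4 hepatocyte markers, the 3 raised genes of highest level in each liver list, of the raised genes on no liver list the 10 with the lowest adjusted p and the 15 of highest level in nAVF, all lowered genes, the 10 genes apart in the lower direction with the largest fold change, sex-typical liver genes with over 3 counts, and the 2 vein genes with the largest change in each list beside 8 fixed ones. Some of these are given as counts alone, and genes named beyond them, among them those of other cell types, were chosen after values were seen.

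Alternatives were the size factors and Wald test of DESeq2 1.42.0, edgeR's exact test, other filters, all 12 libraries in 1 fit, a replicate block, sex as a covariate, ribosomal RNA or liver genes left out, and each library left out in turn. The statistics were checked on simulated data. Some genes that the rule names are not reported here. TCC and baySeq, which the study used between subgroups, and enrichment of terms were not used here.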

Additional observations from a re-analysis of the deposited data

Results flagged for a closer look

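Within nAVF and within sham, summed levels of each list were searched for a library far from the others of its group, by Dixon's test at the 95% level. Of 114 groups of values 11 held such a library, and chance alone gives about 1 in 20. The OUT group, with 2 libraries, could not be searched.

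Of nAVF, mouse 11 had 39.2 CPM of skeletal muscle genes against 8.91 to 10.0 in the other 3, and mouse 4 had 2246 CPM of beta-oxidation genes against 1209 to 1342. Among sham libraries, mouse 16 had 66.8 CPM of clotting factors against 15.5 to 25.3, 282 CPM of acute-phase proteins against 133 to 161, and 202 CPM of platelet genes against 40.5 to 74.8. Sham mouse 22 had 1124 CPM of plasma carriers against 860.3 to 904, 9.26 CPM of bile duct genes against 3.63 to 5.52, and 33.5 CPM of mesothelial genes against 1.95 to 5.57. Sham mouse 23 had the lowest level of conjugation enzymes, 850.1 CPM against 1054 to 1149.7, and 1542 CPM of skeletal muscle genes against 10.9 to 47.0. Sham mouse 19 had 829.7 CPM of atrial muscle genes against 42.2 to 93.2. The highest of the liver values among these, in sham mice 16 and 22, were below those of both OUT libraries for the clotting factors (819 and 3366 CPM), the acute-phase proteins (441 and 1456) and the plasma carriers (4742 and 12947). For the acute-phase proteins, nAVF mice 4 (933) and 6 (479) were above OUT mouse 5.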

How the results depend on the processing

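The groups were named from these data and OUT holds 2 libraries, so counts of calls describe these libraries, and depth limits what is said of genes at a few counts. The raised genes numbered 307 to 524 over the other normalizations, tests and filters, with 261 on the liver lists becoming 236 to 333. Of the fold changes of named genes over the settings, 1980 moved by less than the spread and 213 by more. Direction was not fixed for every named gene. The female liver gene Acot3 had 23 counts in mouse 9, 0 in mouse 5 and up to 8 in a nAVF library, so its direction rests on mouse 9. Medians of lists moved in 29 of 402 cases. Causes of the shifts below were not tested.

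With edgeR's exact test 532 genes passed the rule, of which 8 were lowered and 191 raised on no liver list. DESeq2 gave 11 lowered genes and 135 raised ones on no liver list. Without a filter 6 were lowered and 141 raised off the lists. With all 12 libraries in 1 fit, or with sex as a covariate, 2 were lowered. With liver list genes left out of the normalization and test, 59 of the 90 stayed raised. Genes apart were 233 higher and 7 lower at 5 CPM, and 163 lower at a fold of 1.5.

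Each library was left out in turn. Without an OUT library the other stands alone, and is assumed to vary like nAVF. Genes past the rule were then 214 (without OUT mouse 9) to 394 (without OUT mouse 5), raised genes 212 to 392, those on the liver lists 186 to 283, those on no liver list 26 to 109 and lowered genes 1 to 3. Genes apart were 337 to 687 higher and 63 to 318 lower.

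The labels give replicate numbers but do not say that they pair an AVF with a sham mouse, and they were not taken as pairs. Deviations of the 6 same-numbered pairs correlated at -0.23 to 0.30, with 3 over 0.1. These values cannot show whether the mice were paired. With that replicate block in a fit over all 12 libraries 98 genes passed, 96 raised (89 of them among the 351, 76 on the liver lists and 20 on none) and 2 lowered.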

Other observations

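Of the 158 genes on no liver list that lay apart in the higher direction, 88 did not pass the edgeR rule. The genes named here were chosen after their values were seen, and none is called changed. Apoc1, an apolipoprotein of liver and macrophages, was at 101 and 247 CPM in OUT, with 88.9 in nAVF mouse 4 and 18.2 to 26.8 in the other nAVF. Phyh, of peroxisomal phytanic acid oxidation, was at 147 and 205 CPM against 61.6 to 129 in nAVF, and sham reached 259, above both. The transcription factor gene Gata4 was at 2.36 and 6.09 CPM against 0.543 to 1.80 in nAVF, and its highest sham library, at 4.63, was above mouse 5.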
